A study of Mus musculus with 134 samples.

Results

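The genes described here are 10 genes of the primed epiblast and of the Nodal pathway, Fgf5, Otx2, Pou3f1, Nodal, Lefty1, Lefty2, Tdgf1, Smad7, Eomes and Mixl1. They were taken by name, with earlier results of these data known. All 10 were present among the 25209 genes of the bulk expression tables and among the 18817 genes of both single-cell matrices. The study profiled mouse embryonic stem cells (mESCs) of the E14 line (strain 129/Ola), an established line, with SET-seq, in which the chromatin and the mRNA of the same cells are tagmented and sequenced. In SET-seq the nuclei go to chromatin profiling, and the RNA comes from the supernatant, that is, from the cytoplasm. There the hybrids of mRNA and cDNA were cut directly with pA-Tn5, a Tn5 transposase fused to protein A.

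The bulk expression data comprised 54 libraries of untreated cells in 27 conditions of 2 libraries each. In vitro libraries were tagmented from purified total RNA, 8 at 16 °C and 8 at 37 °C for 5, 10, 15 or 30 min, 6 with 25, 50 or 100 ng/ul of Tn5, 2 from 300 ng of RNA and 4 from 3 ng or 30 pg. A pair of libraries was made by conventional ligation-based RNA-seq from poly-A RNA. Wild-type (WT) SET-seq libraries came from 100, 1000 or 10000 cells without antibody (6), with the H3K4me3 antibody (6) or with the H3K27me3 antibody (6), and 2 more came from 10 cells. Knockouts of Aebp2, which encodes an accessory subunit of the Polycomb repressive complex PRC2, were 2 clones made with different guide RNAs (KO1 and KO2). Each clone had 2 libraries, titled H3K27me3, whose number of cells the labels did not give. The single cells came from WT cells incubated for 12 h with beads coated with Wnt3a. Daughters of a dividing cell were collected as proximal (at the bead) or distal, in 10 H3K27me3 and 6 H3K4me3 experiments. The study calls the libraries of the temperature and time conditions, those of each clone and the single-cell experiments independent. For the other bulk conditions no source used here says so, and their p-values measure the spread between libraries, part of which may be technical.

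Pluripotent cells of the early embryo pass from a naive state, the one that mESCs in culture resemble, to a primed state, in which the epiblast becomes ready to form the germ layers. Nodal is a secreted ligand of the TGF-beta family that acts through Activin receptors, with the co-receptor Tdgf1 (Cripto), and through SMAD2 and SMAD3 together with the DNA-binding partner FOXH1. Its targets include its own antagonists Lefty1 and Lefty2, so the pathway limits itself by feedback. Smad7 is an inhibitory SMAD. Otx2, Pou3f1 (Oct6) and Fgf5 are markers of the primed epiblast, and Eomes and Mixl1 encode transcription factors of the primitive streak that respond to Nodal.

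Lefty1 and Lefty2 are close copies of each other, so reads could be split between them. Both lie on the plus strand of chromosome 1 in the mm9 build, Lefty2 at chr1:182823239-182829238 and Lefty1 at chr1:182865153-182868532. The third exons of the pair differed at 5 of 246 bases (98.0% identical). Of the 1225 windows of 100 bases along the exons of Lefty1, 68 were shared with Lefty2. In the whole genome, 94.4% of the windows of Lefty1, 96.5% of those of Lefty2 and 93.0% of those of Tdgf1 were found once, against 100% for the other 7 genes. The values of Lefty1, Lefty2 and Tdgf1 may therefore hold some misassigned or lost reads, and most of the length of each tells it from its copies.

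The 250 bases before the start of each of these genes are shown because Lefty1 and Lefty2 moved together in the KO libraries. Capitals mark matches to TATAAA (the TATA box) and to GTCCAGAC (a SMAD-binding motif):

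Lefty1 promoter, chr1:182864903-182865152: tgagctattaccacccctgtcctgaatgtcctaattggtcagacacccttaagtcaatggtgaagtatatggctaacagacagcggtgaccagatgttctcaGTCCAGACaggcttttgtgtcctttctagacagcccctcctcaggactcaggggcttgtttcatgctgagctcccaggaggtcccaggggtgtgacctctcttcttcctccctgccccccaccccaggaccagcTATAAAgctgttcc

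Lefty2 promoter, chr1:182822989-182823238: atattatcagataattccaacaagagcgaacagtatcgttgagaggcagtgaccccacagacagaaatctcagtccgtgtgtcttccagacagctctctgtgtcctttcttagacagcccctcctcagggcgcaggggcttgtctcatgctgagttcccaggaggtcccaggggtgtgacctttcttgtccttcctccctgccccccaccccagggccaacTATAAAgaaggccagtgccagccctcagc

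The windows shared an identical run of 27 bases, which began 77 bases before the start of Lefty1 and 95 bases before that of Lefty2. A TATA match began 14 bases before the start of Lefty1 and 29 bases before that of Lefty2, and Otx2 had a match at 192 bases. TATAAA or its reverse complement TTTATA was found in 12.2% of 24939 promoter windows of this length. The SMAD motif (GTCCAGAC, GTCTAGAC or GTCTGGAC, on either strand) was found before Lefty1, at 148 bases, and before Smad7, at 189 bases, and in 0.854% of all windows. The FOXH1 motif (AATCCACA or TGTGGATT) was found before Mixl1, at 246 bases, and in 0.706% of all windows. The other genes held no match to these letters in this window.

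The remaining genes were Fgf5 at chr5:98683203-98706052 (plus strand), Otx2 at chr14:49277352-49287319 (minus), Pou3f1 at chr4:124334889-124337899 (plus), Nodal at chr10:60880720-60888086 (plus), Tdgf1 at chr9:110842112-110848662 (minus), Smad7 at chr18:75527019-75555588 (plus), Eomes at chr9:118387307-118395250 (plus) and Mixl1 at chr1:182623179-182627165 (minus). Mixl1, Lefty2 and Lefty1 thus lay in one stretch of chromosome 1.

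After removal of Rn45s, the 45S ribosomal RNA precursor, the libraries held between 188275 and 16888686 read pairs on genes, with a median of 3569340. The KO libraries were among the shallower ones (935126 to 1124026), against 1237504 to 6046513 in the WT H3K27me3 libraries. Rn45s had taken 48.8 to 56.7% of the counts in KO libraries and 21.9 to 29.7% in WT H3K27me3 libraries. The in vitro libraries of 3 ng and 30 pg and the SET-seq libraries of 10 cells entered no test. Levels are given as CPM, counts scaled to the total of the library without Rn45s, and levels of different genes are compared only per kilobase of exon (RPKM).

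In the 24 in vitro libraries the genes of the Nodal pathway were expressed and the markers of the primed state were low. By median RPKM, Tdgf1 stood first (252), followed by Smad7 (68.1), Lefty2 (54.8), Nodal (36.3) and Lefty1 (17.3), and then by Eomes (2.36), Otx2 (1.35), Pou3f1 (1.30), Mixl1 (0.214) and Fgf5 (0). Otx2 and Pou3f1 were neighbours whose levels overlapped. In the 6 WT H3K27me3 libraries the median RPKM of Tdgf1 was 197, of Nodal 45.6, of Lefty2 28.8, of Smad7 15.1 and of Lefty1 9.90, with the other 5 genes at 1.91 or lower. Fgf5 was barely detected in bulk, reaching 1 CPM in 3 of 54 libraries, and Mixl1 did so in 24. General pluripotency markers were present in every group, for example Pou5f1 (Oct4) at a median of 242 CPM in vitro and 156 CPM in the KO libraries.

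**Figure D1:**
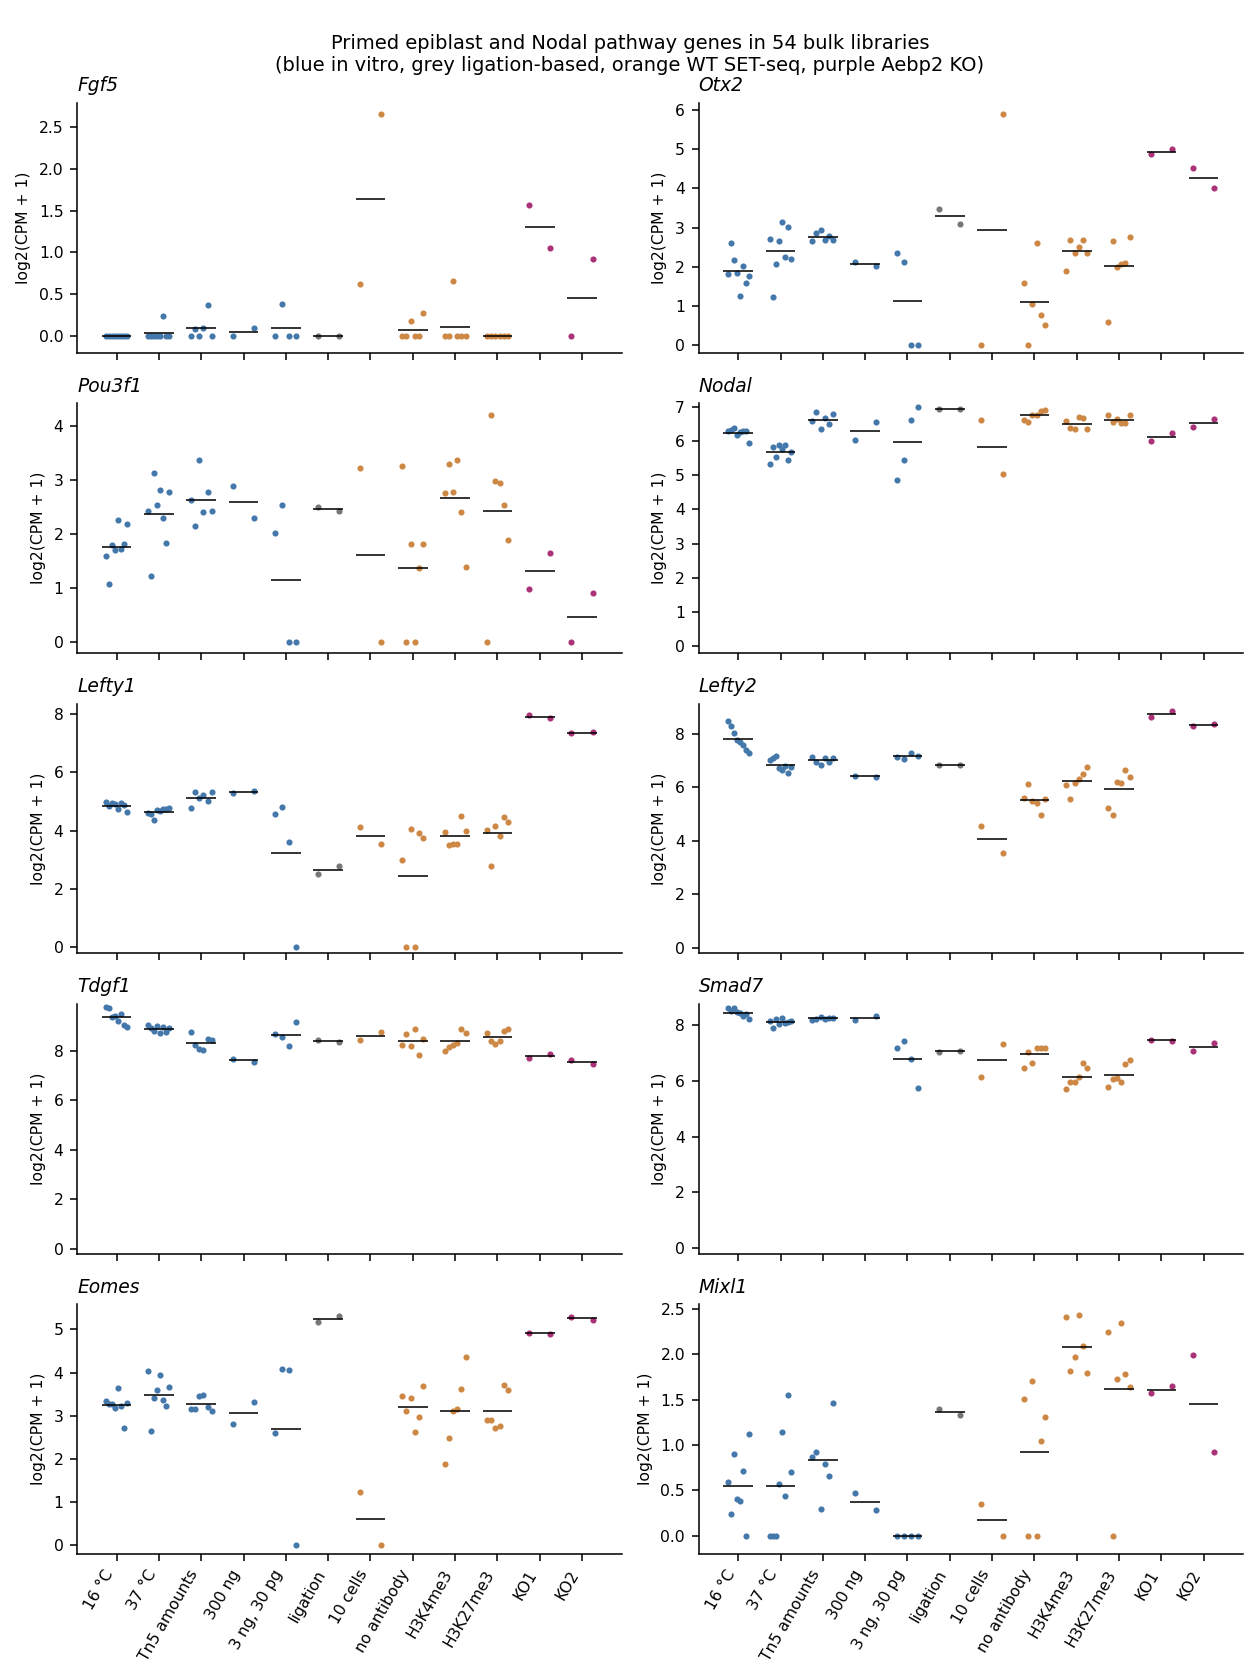
Level of each of the 10 genes as log2(CPM + 1) in the 54 bulk libraries, in 12 columns of conditions. Points are libraries and black lines are means, with in vitro libraries in blue, ligation-based in grey, WT SET-seq in orange and KO in purple. Lefty1, Lefty2, Otx2 and Eomes stood higher in the 4 KO libraries than in the WT SET-seq columns of 100 cells or more, Fgf5 was at 0 in most libraries, and Mixl1 was at most 4.38 CPM.

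The question of which of these genes changed without Aebp2 was addressed by the 4 KO libraries against the 6 WT H3K27me3 libraries. Lefty1, Lefty2, Otx2, Eomes and Smad7 were higher in KO cells, Tdgf1 was lower, and Nodal did not pass the test. By the quasi-likelihood test of edgeR, 4934 of 10495 genes tested passed an adjusted p of 0.05 (47.0%), 22.5% higher and 24.5% lower in KO. The fit took the 4 libraries of the 2 clones as separate replicates. Its SE and p-values therefore measure the spread between libraries rather than between clones. Of the 10 genes, 8 were abundant enough to be tested and 6 passed, 5 of them higher and 1 lower. The median log2 fold change was 1.68 over the 8 genes and -0.02 over all genes tested.

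Both antagonists of Nodal rose, and Lefty1 had the largest change of the 8 genes tested. Lefty1 was at 245 and 229 CPM in KO1 and at 159 and 164 CPM in KO2, against 5.95 to 21.0 CPM (median 16.05) in the WT H3K27me3 libraries. Every KO library lay above every WT library, and the log2 fold change was 3.83 ± 0.24 (SE), or 14.2-fold, with an adjusted p of 1.79e-09. The share of all genes with such a separation is not given here, and 47.0% of all genes tested passed in this comparison. Lefty2 was at 396 and 461 CPM in KO1 and at 308 and 329 CPM in KO2, against 30.1 to 97.8 CPM (median 71.3) in WT. The groups did not overlap here either, with a log2 fold change of 2.64 ± 0.24 and an adjusted p of 1.07e-07. Smad7, the inhibitory SMAD, was at 177 and 174 CPM in KO1 and at 134 and 165 CPM in KO2. The WT libraries lay between 54.7 and 106 CPM, and the log2 fold change was 1.19 ± 0.17 (adjusted p = 1.91e-05).

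The ligand and its co-receptor did not rise. Nodal was at 62.8 and 73.8 CPM in KO1 and at 83.5 and 99.6 CPM in KO2, against 90.5 to 108 CPM in WT. Only the second KO2 library lay within the WT range, and the log2 fold change was -0.23 ± 0.17 (adjusted p = 0.283). Tdgf1 was at 209 and 234 CPM in KO1 and at 198 and 174 CPM in KO2, against 305 to 469 CPM in WT. All KO libraries lay below all WT libraries, and Tdgf1 fell by 0.86 ± 0.14 on the log2 scale (adjusted p = 9.74e-05), which is less than the log2 change of 1 that the study's own rule asks for.

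Among the markers of the primed state and of the streak, Otx2, a homeobox transcription factor, rose. It was at 28.5 and 31.0 CPM in KO1 and at 21.9 and 15.1 CPM in KO2, against 0.508 to 5.70 CPM in WT, with a log2 fold change of 2.82 ± 0.49. Eomes, a T-box transcription factor, was at 29.4 and 28.9 CPM in KO1 and at 37.8 and 36.5 CPM in KO2, against 5.62 to 12.1 CPM in WT, with a log2 fold change of 2.18 ± 0.30. For both genes the lowest KO library lay above the highest WT library (adjusted p = 1.29e-04 and 9.87e-06). Pou3f1, a POU-domain transcription factor, had 1, 2, 0 and 1 counts in the KO libraries, or 0 to 2.14 CPM, against 0 to 17.5 CPM (median 5.76) in WT. Its log2 fold change of -2.64 ± 1.15 missed the threshold (adjusted p = 0.0672). Fgf5 had 4 counts in the KO libraries together and 0 in the 6 WT libraries, and Mixl1 was at 0.89 to 2.98 CPM in KO and 0 to 4.06 CPM in WT. Both were too low to be tested.

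**Figure D2:**
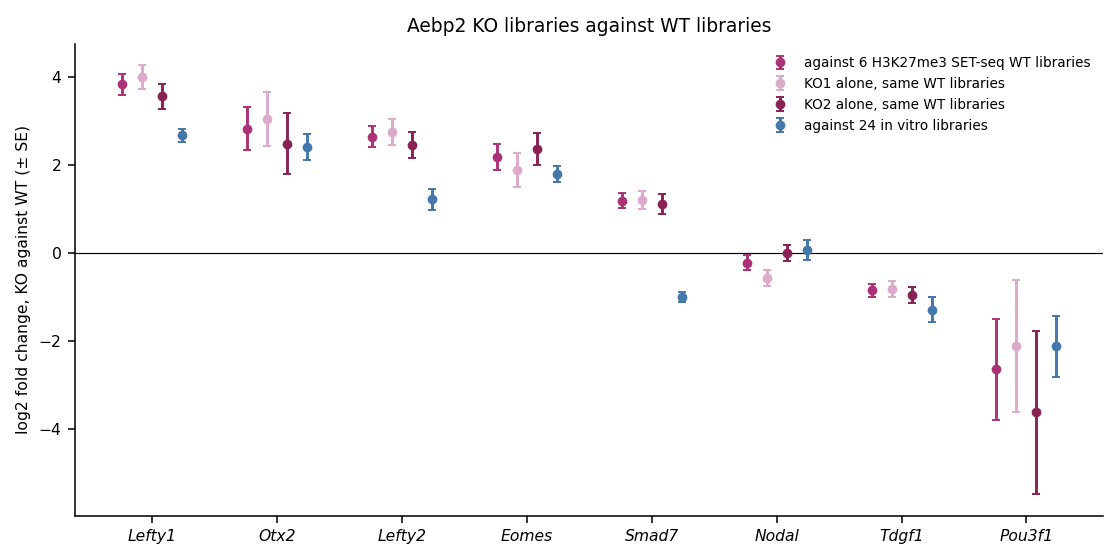
Log2 fold change of 8 genes in Aebp2 KO libraries against WT, with bars of 1 SE, for the 4 KO libraries against 6 WT H3K27me3 libraries, for KO1 alone, for KO2 alone and for the 4 KO libraries against 24 in vitro libraries. Lefty1, Otx2, Lefty2 and Eomes lay above 0 in all 4 comparisons, whereas Smad7 was at 1.19 against WT SET-seq and at -1.0045 against the in vitro libraries.

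Each clone alone gave the same directions. For KO1 the log2 fold changes were 3.99 (Lefty1), 3.05 (Otx2), 2.75 (Lefty2), 1.88 (Eomes), 1.20 (Smad7) and -0.83 (Tdgf1), and for KO2 they were 3.56, 2.48, 2.45, 2.36, 1.11 and -0.96 in the same order. These comparisons share their WT libraries. Nodal was the exception, at -0.57 in KO1 (adjusted p = 0.0292) and -0.01 in KO2. Tested directly, 97 of 11446 genes (0.847%) differed between the clones, 0.515% higher and 0.332% lower in KO1, and 0 of the 8 genes tested did by edgeR or by DESeq2. At an unadjusted p below 0.05, only Nodal differed (log2 fold change -0.56 ± 0.23, p = 0.0298 and adjusted p = 0.314, both by edgeR). The 97 genes became 4 without the second KO2 library and 214 without the first WT library of 100 cells.

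The direction for Smad7 depended on the WT libraries used. Against the 24 in vitro libraries, in which 54.4% of 12485 genes passed, Lefty1 (2.67 ± 0.15), Otx2 (2.41 ± 0.29), Eomes (1.79 ± 0.18) and Lefty2 (1.22 ± 0.24) were again higher in KO and Tdgf1 was again lower (-1.29 ± 0.28). Smad7 was lower in KO there, at -1.0045 ± 0.12 (adjusted p = 3.61e-08), with its 134 to 177 CPM in KO above all WT H3K27me3 libraries and below the 239 to 394 CPM of the in vitro libraries. Pou3f1 passed as lower (-2.13 ± 0.69, adjusted p = 0.0100), and Nodal stayed at 0.06 ± 0.23.

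The knockout itself and the cells were checked with Aebp2 and Hprt. Aebp2 counts, which cover all exons and so do not read the edit, were 15.7 and 15.0 CPM in KO1 and 49.7 and 30.2 CPM in KO2, against 34.7 to 76.0 CPM in WT H3K27me3 libraries. KO2 overlapped WT, with a log2 fold change of -0.35 (adjusted p = 0.428). The 4 KO libraries together were at -0.88 ± 0.31 against WT (adjusted p = 0.0252 by edgeR). Aebp2 stood at -1.49 ± 0.41 in KO1 against KO2 (adjusted p = 0.101 by edgeR). Hprt, which is deleted in the parental E14TG2a line, was at 0 to 2.14 CPM in the 4 KO libraries and 0 to 1.29 CPM in the in vitro libraries. It was at 66.2 to 485 CPM in the 18 WT SET-seq libraries, and at 184 and 181 CPM in the ligation-based libraries. The loss of Aebp2 and the stock of cells that Hprt marks cannot be told apart in the comparison of KO with WT SET-seq. The in vitro libraries, which lack Hprt as the KO libraries do, differ from them in the source of the RNA. In these bulk samples, a change in RNA per cell and a change in the number of cells that express a gene cannot be told apart.

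Other genes of the same processes were counted from lists, which were also chosen with earlier results of these data known. In KO against WT H3K27me3, 47.0% of all genes tested passed, 22.5% higher and 24.5% lower. Of 16 other primed epiblast genes, 13 were tested in KO against WT H3K27me3, 8 were higher and 0 lower, with a median of 1.48. They included Zic2 (3.31 ± 0.24), a zinc-finger transcription factor, and the de novo DNA methyltransferase Dnmt3a (3.11 ± 0.16). Of 27 other genes of the Nodal and Activin pathway, 22 were tested, 4 were higher and 4 lower, with a median of 0.21. Skil (2.24 ± 0.22), a feedback repressor of SMADs, was higher. Inhbb (-2.85 ± 0.62), which encodes a subunit of Activin B and inhibin B, and Gdf3 (-1.59 ± 0.20), a ligand of the same family, were lower. Against the in vitro libraries the primed list gave 6 higher and 2 lower of 15, and the Nodal list 5 higher and 5 lower of 22. Of all 12485 genes tested there, 3017 were higher and 3773 lower (54.4% together). The list of other streak and mesendoderm genes gave 0 higher and 4 lower of 7 there, with a median of -2.33.

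The lists that follow were counted in KO against WT H3K27me3, where 22.5% of all genes tested were higher and 24.5% lower. Of 12 naive pluripotency genes, 2 were higher (Tbx3 at 0.63 and Klf2 at 0.50) and 6 lower (the largest Klf4 at -2.44 and Tcl1 at -1.02). Of 5 general pluripotency genes, Lin28a (1.90) and Sall4 (1.13) were higher and Nanog (-0.54) was lower. Of 12 other genes of the streak and mesendoderm, 4 were tested and Gsc was lower (-2.27). Of 8 primitive endoderm markers, 2 were tested, with Col4a1 higher (1.17) and Lama1 lower (-1.53). The summed level of that list overlapped, at 38.5 to 68.6 CPM in KO and 34.1 to 73.6 CPM in WT. Of 7 trophoblast markers, which include Eomes, Eomes was higher and Tfap2c lower (-1.10), with a sum of 55.7 to 72.6 CPM in KO and 22.8 to 76.6 CPM in WT. Of 8 fibroblast markers 1 was tested and it did not pass, with a sum of 6.23 to 28.4 CPM in KO and 3.05 to 20.1 CPM in WT. The part of other cell types in the values of the 10 genes was not tested.

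The balance between the pair of antagonists was compared per kilobase. In the KO libraries the RPKM of Lefty1 was 0.759 to 0.946 times that of Lefty2 (median 0.774), as against 0.281 to 0.649 (median 0.339) in the WT H3K27me3 libraries. WT libraries also reached high ratios. The 2 WT SET-seq libraries of 10 cells were at 1.10 and 1.53, above all KO libraries. Their mean levels were low, at 13.4 CPM for Lefty1 and 16.5 CPM for Lefty2. The shallower of them held 188275 read pairs, so its ratio rests on few counts. WT SET-seq without antibody ran from 0 to 0.714, and the libraries of 300 ng of RNA were at 0.692 and 0.733, close below KO. The ratio stood at 0.131 to 0.256 at 16 °C, 0.213 to 0.427 at 37 °C and 0.0639 and 0.0782 in the ligation-based libraries. In KO, Lefty2 (median RPKM 146) and Lefty1 (121) exceeded Tdgf1 (106), and the range of Lefty1 overlapped those of both others. Across the 27 conditions, log2(CPM + 1) of Lefty1 and Lefty2 had a Pearson r of 0.65, Lefty2 and Eomes 0.65, and Otx2 and Lefty1 0.59. These were the highest values among all pairs of members compared. Nodal was negative with Lefty1 (-0.31), Lefty2 (-0.20), Tdgf1 (-0.27), Smad7 (-0.40), Otx2 (-0.22) and Pou3f1 (-0.14), and at 0.07 with Eomes. The points share cells, depth and protocol within each kind of library.

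**Figure D3:**
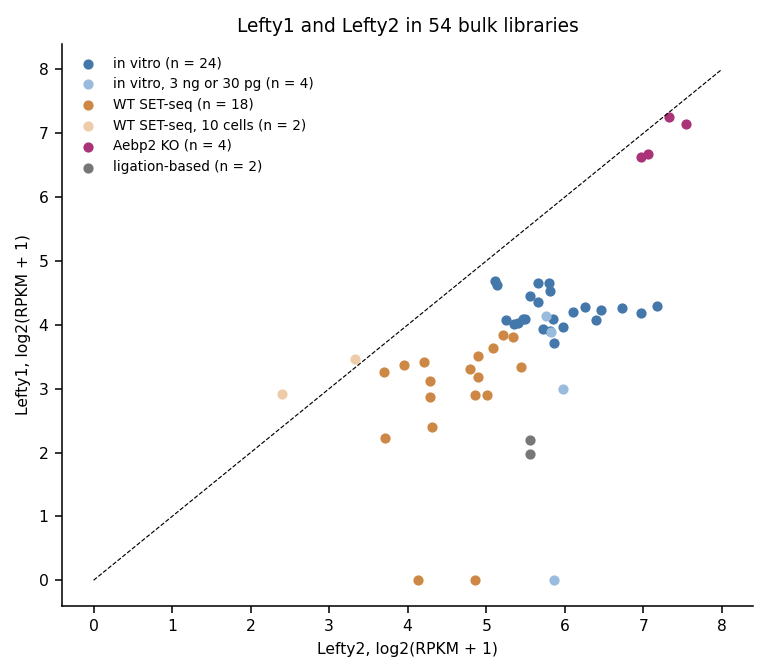
Level of Lefty1 against Lefty2 as log2(RPKM + 1) in the 54 bulk libraries, coloured by 6 kinds of library, with equal levels on the dashed line. The 4 KO libraries lie at the upper right just below the line, at ratios of 0.759 to 0.946, and the ligation-based libraries lie farthest below it among libraries in which Lefty1 was detected.

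The level in SET-seq was set against the in vitro libraries to ask how these genes read out in the supernatant of cells as compared with purified RNA. Smad7, Lefty2, Lefty1 and Tdgf1 were lower in the 18 WT SET-seq libraries and Nodal was higher. In this comparison 72.3% of 11625 genes passed, 36.2% higher and 36.1% lower, so that 5 of 8 genes is not above the background. Smad7 was at 51.1 to 147 CPM (median 88.3) in SET-seq and 239 to 394 CPM (median 302) in vitro, with no overlap and a log2 fold change of -1.82 ± 0.12 (adjusted p = 8.58e-19). Lefty2 was at 29.7 to 106 CPM (median 67.7) against 83.2 to 355 CPM (median 136), a change of -1.35 ± 0.16. Lefty1 was at 0 to 21.6 CPM (median 13.5) against 19.7 to 39.9 CPM (median 28.0), a change of -1.24 ± 0.17.

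Tdgf1 overlapped widely, at 228 to 476 CPM (median 337) against 189 to 879 CPM (median 485), and changed by -0.46 ± 0.13 (adjusted p = 0.00138). Nodal was at 80.3 to 118 CPM (median 98.2) against 39.5 to 114 CPM (median 76.1) and changed by 0.39 ± 0.11 (adjusted p = 0.00189). Otx2 (-0.53, adjusted p = 0.0771), Pou3f1 (0.35) and Eomes (-0.16) did not pass. With SET-seq of 10000 cells against the in vitro libraries of 37 °C for 5 min and of 300 ng alone, only Lefty1 (-1.02) and Smad7 (-1.38) passed, and Tdgf1 stood at 0.09. Of the other genes of the pathway, 6 were higher (Inhbb by 3.04, Gdf3 by 1.61) and 13 lower (among them Furin at -2.23) of 22 tested. Of the other primed genes, 4 were higher (Lin28b by 2.63, Etv4 by 2.28) and 6 lower (Sox3 at -2.25, Cdh2 at -1.96) of 14. Protocol, RNA fraction and the Hprt status of the cells change together in this comparison and cannot be told apart.

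Within SET-seq the level of some genes went with the number of cells, which was not tested. With H3K27me3, Lefty2 was at 35.9 and 30.1 CPM from 100 cells, 71.4 and 71.1 CPM from 1000 cells and 97.8 and 81.4 CPM from 10000 cells. With H3K4me3 the same numbers of cells gave 66.0 and 45.8 CPM, 69.5 and 77.4 CPM, and 89.2 and 106 CPM. Without antibody the order was absent, at 46.7 and 69.3 CPM, 43.3 and 40.9 CPM, and 29.7 and 45.7 CPM. Smad7 with H3K27me3 went from 54.7 and 65.8 CPM (100 cells) over 68.5 and 61.5 CPM (1000) to 96.2 and 106 CPM (10000). Eomes with H3K4me3 went from 2.699 and 4.64 CPM over 7.59 and 7.88 CPM to 11.4 and 19.7 CPM. Every WT SET-seq library of 100 cells or more lay below all KO libraries for Lefty2 and Eomes. Smad7 without antibody reached 146 and 147 CPM from 10000 cells, within the 134 to 177 CPM of the KO libraries.

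The RNA of libraries with either antibody was compared next, and none of these genes passed. Between the 6 H3K27me3 and 6 H3K4me3 libraries, with cell number in the model, 0 of 11616 genes (0%) passed by edgeR and 0 by DESeq2, with 361 at an unadjusted p below 0.05 by edgeR. Of these 10 genes 9 were tested and 0 passed. The nearest were Lefty2 (-0.33, p = 0.0256) and Tdgf1 (0.17, p = 0.0499) before adjustment, with adjusted p = 0.996 for each by edgeR.

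Conventional RNA-seq gave a different order of the genes. The ligation-based libraries held Lefty1 at 4.76 and 5.82 CPM, below all 24 in vitro libraries compared, with a log2 fold change of -2.78 ± 0.31 (adjusted p = 1.47e-08). Smad7 was at 132 and 135 CPM and lay below the in vitro range too (-1.52 ± 0.17). Eomes was at 35.05 and 38.8 CPM against 5.30 to 15.4 CPM in vitro (1.71 ± 0.20, adjusted p = 3.50e-08). These 3 of 9 genes tested passed, as did 56.9% of 13224 genes, 27.2% higher and 29.7% lower. Lefty2 was at 114 CPM in each library and did not pass (-0.73, adjusted p = 0.117). Otx2 was at 10.2 and 7.55 CPM (adjusted p = 0.0811), Tdgf1 at 350 and 331 CPM (adjusted p = 0.0808) and Nodal at 121 and 122 CPM (adjusted p = 0.225).

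Eomes in the ligation-based libraries was close to its level in KO (28.9 to 37.8 CPM), whereas Lefty1 and Lefty2 lay far below theirs. With the in vitro libraries of 37 °C for 5 min alone, Nodal (1.14), Lefty2 (-0.45) and Tdgf1 (-0.82) passed as well. With all 24 in vitro libraries, 56.9% of all genes tested passed, 27.2% higher and 29.7% lower. Of the other pathway genes 7 were higher (Inhbb by 4.78, Foxh1 by 2.61) and 8 lower (among them Bambi at -2.03) of 22. Of 16 other primed genes 6 were higher (Lin28b by 3.99, Etv4 by 2.16) and 1 lower (Tcf15 at -1.58). These libraries also carry Hprt and were sequenced on another platform, so library type and cells cannot be told apart.

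Gene levels in the libraries tagmented from total RNA differed between the temperatures. The labels do not say whether both temperatures used one RNA. Rn45s was also more abundant in the 37 °C libraries (33.0 to 40.7%) than in the 16 °C libraries (11.8 to 25.1%). The median depth without Rn45s was lower in the 37 °C libraries, with 1922746 against 6397655 read pairs. The part of RNA source, Rn45s and depth in the differences was not tested. Lefty2, Nodal, Tdgf1 and Smad7 were lower at 37 °C than at 16 °C, and Pou3f1 and Otx2 were higher. With time in the model, 63.4% of 11788 genes passed, 32.0% higher and 31.4% lower, and 6 of 8 genes tested did. Lefty2 at 5 min was at 355 and 309 CPM at 16 °C and at 129 and 137 CPM at 37 °C. Its means were 238 and 122 CPM at 10 min, 197 and 104 CPM at 15 min and 161 and 99.5 CPM at 30 min. The ratio of 37 °C to 16 °C went from 0.400 through 0.514 and 0.529 to 0.617, and the log2 fold change over the 4 times was -0.91 ± 0.08 (adjusted p = 7.19e-11).

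Tdgf1 followed the same course, with means of 863 and 511 CPM at 5 min, 676 and 482 CPM at 10 min, 649 and 462 CPM at 15 min and 511 and 456 CPM at 30 min. Its log2 fold change was -0.41 ± 0.06 (adjusted p = 2.38e-06). Nodal changed by -0.49 ± 0.08 and Smad7 by -0.28 ± 0.06. Pou3f1 (0.96 ± 0.26, adjusted p = 0.00179) and Otx2 (0.76 ± 0.27, adjusted p = 0.0173) were higher at 37 °C, and Otx2 was at -0.08 in the 5 min libraries alone. The call of Otx2 was lost without the second 37 °C library of 10 min (adjusted p = 0.0623) or the first of 15 min (adjusted p = 0.0620). Lefty1 (-0.15, adjusted p = 0.140) and Eomes (0.36, adjusted p = 0.0512) did not pass.

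The narrowing of the difference was tested as the interaction of temperature with 30 against 5 min, in which 2.81% of 12297 genes passed, 1.19% with a higher and 1.63% with a lower ratio at 30 min. Of 8 genes tested only Tdgf1 passed, at 0.56 ± 0.15 (adjusted p = 0.0462), and it lost the call in 10 of 16 fits without 1 library, with an adjusted p of up to 0.215. Lefty2 had an estimate of 0.61 and did not pass (adjusted p = 0.139). In the test of temperature over the 4 times, 63.4% of all genes tested passed, 32.0% higher and 31.4% lower at 37 °C. Of 21 other pathway genes tested for temperature, 4 were higher at 37 °C (Fst by 0.70, Skil by 0.63) and 9 lower (Gdf3 at -0.79, Smurf1 at -0.57). Of 14 other primed genes, 5 were higher (Sox3 by 1.06, Zic2 by 0.67) and 2 lower (Etv4 at -0.63, Dnmt3b at -0.57).

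**Figure D4:**
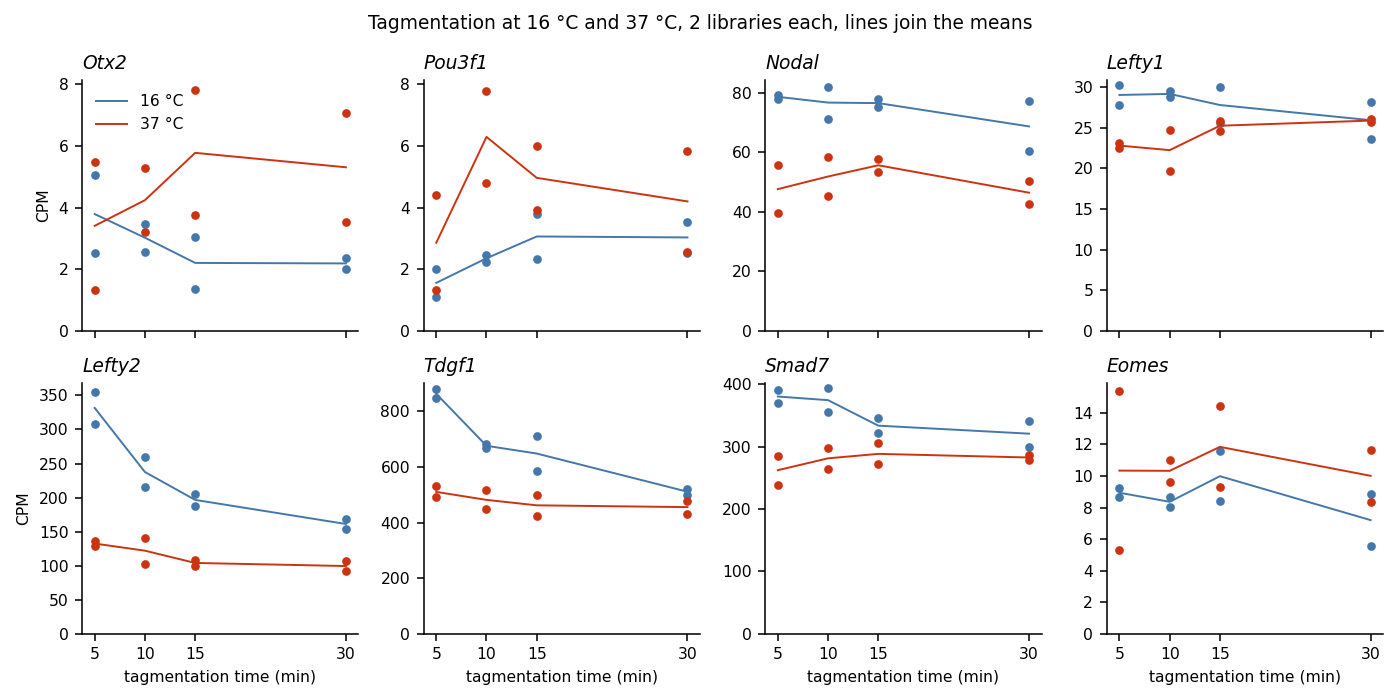
CPM of 8 genes in the in vitro libraries against tagmentation time (5, 10, 15 and 30 min) at 16 °C and 37 °C, with 2 libraries as points and their mean as a line at each time and temperature. Lefty2 and Tdgf1 were highest at 16 °C for 5 min (means of 332 and 863 CPM) and the lines of the 2 temperatures came closer with time, while Lefty1 stayed between 19.7 and 30.3 CPM.

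The genes whose pattern over the 27 conditions was most like that of each member were ranked by the Pearson r of log2(mean CPM + 1) among 10119 genes. For Lefty1 they included Crebbp (0.86) and Csrnp3 (0.82), and for Lefty2 Rbms1 (0.90), Tob2 (0.88) and Rnf213 (0.88). For Nodal they were Ranbp3 (0.91), Impdh1 (0.88) and Ap1b1 (0.88), for Tdgf1 Mesd (0.80), Snx3 (0.75) and Harbi1 (0.75), and for Smad7 Srpr (0.96), Hoxb13 (0.95) and Trip10 (0.94). For Otx2 they were Aldh5a1 (0.81), Ncaph (0.81) and Wnk3 (0.79), for Pou3f1 Irak1bp1 (0.86), Npl (0.81) and Gadd45a (0.77), and for Eomes Nup214 (0.90), Tnrc6c (0.90) and Pdzd4 (0.89). Fgf5 and Mixl1 were too low for this. The values are a description over conditions that share protocols.

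Among the single cells collected from Wnt3a beads, 545 of 752 had more than 1000 and fewer than 5000 genes and were kept, 335 of 384 from H3K27me3 and 210 of 368 from H3K4me3 experiments. They comprised 278 proximal and 267 distal cells, with a median of 198020 reads per cell in the former kind of experiment and 93762.5 in the latter. The single-cell counts carry no molecular identifiers and include intronic reads, whereas the bulk counts cover exons alone. The cells used 96 barcodes, 80 of which recurred in several experiments (at most 12) and 0 within an experiment. Hprt had a read in 164 of the 545 cells. Aebp2 had reads in 100% of passing cells of every H3K27me3 experiment. Its summed level ran from 16.3 CPM (proximal cells of experiment 3) to 80498 CPM (distal cells of experiment 4). Most of these values lay far above those of the bulk WT H3K27me3 libraries. The cause was not tested, and single-cell levels are not on the scale of the bulk levels.

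Nodal was the member most often detected in H3K27me3 experiments, in 250 of 335 cells (74.6%, exact 95% interval 69.6 to 79.2%), and was found in 85 of 210 cells of H3K4me3 experiments (40.5%, 33.8 to 47.4%). These intervals cover the counting error of pooled cells alone and leave out the much larger spread between experiments. Tdgf1 was found in 85 (25.4%) and 103 cells (49.0%), and Smad7 in 116 (34.6%) and 40 cells (19.0%), in the same order of experiments. Fgf5, close to 0 in the bulk libraries, had a read in 92 cells (27.5%) of H3K27me3 experiments and 3 cells (1.43%) of H3K4me3 experiments. The others were rare. Lefty2 was found in 8 and 18 cells, Lefty1 in 10 and 5, Eomes in 12 and 1, Otx2 in 9 and 1, and Pou3f1 in 5 and 6. Mixl1 was found in 0 of 545 cells, which allows a share of up to 0.550% of cells with a read and does not limit the share that express it.

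The shares varied more between experiments than any of these totals shows. Nodal had reads in all passing cells of H3K27me3 experiments 1, 2, 6, 8 and 9 (7, 8, 45, 62 and 47 cells), where the median number of reads per cell was 38, 588.5, 51, 67 and 14. It was found in 13.3 to 33.3% of cells in experiments 4, 5 and 7. In H3K4me3 experiments Nodal ranged from 0% of 4 cells in experiment 1 over 24.6 to 45.7% in experiments 2 to 5 to 95.5% (21 of 22 cells) in experiment 6. Fgf5 was found in 54 of 62 cells of H3K27me3 experiment 8, in 7 of 7 of experiment 1 and in 7 of 8 of experiment 2. Otx2 was in 8 of 8 cells of experiment 2, with a median of 44.5 reads, and in 1 cell of the other H3K27me3 experiments together. The median depth of these experiments ran from 9336 reads per cell (experiment 4) to 1475914 (experiment 1), and the part of depth in these shares across experiments was not tested. Reads were also concentrated in single cells. For Lefty1, 1089 of 1417 reads of the H3K27me3 experiments came from 1 cell (76.9%), for Lefty2 490 of 499 (98.2%), for Smad7 1526 of 2060 (74.1%) and for Tdgf1 in H3K4me3 experiments 21818 of 25054 (87.1%).

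**Figure D5:**
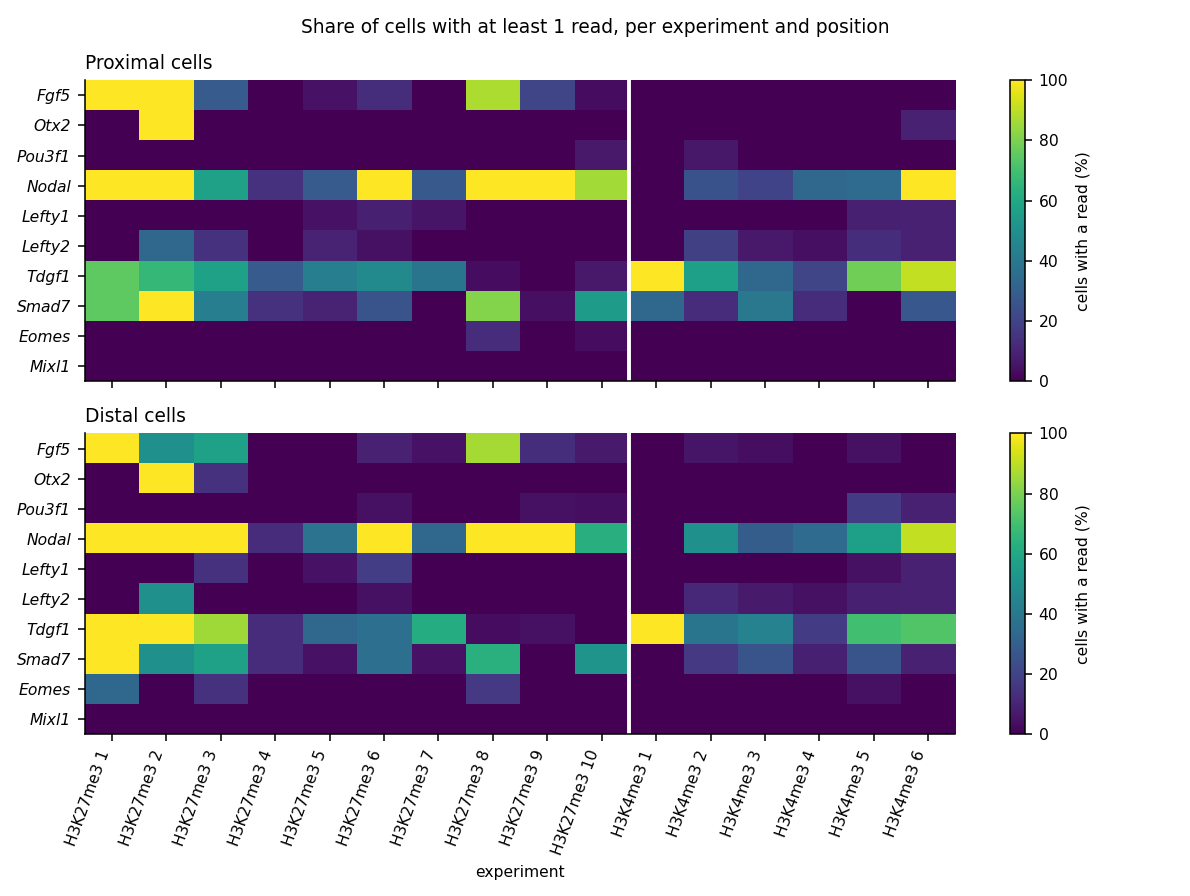
Share of cells with at least 1 read of each gene, in percent, as a heat map over the 10 H3K27me3 and 6 H3K4me3 experiments, with proximal cells in one panel and distal cells in the other. Nodal was detected in all cells of several H3K27me3 experiments at both positions, and Mixl1 in no cell.

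Whether the daughter at the bead differed from the distal daughter was tested over experiments, with counts summed per experiment and position. In 14 experiments with at least 3 cells per position, 0 of 13086 genes (0%) passed by edgeR, with 1194 at an unadjusted p below 0.05 by edgeR and 47 called by DESeq2. Of these genes 7 were tested and 0 passed by either tool. The estimates of proximal over distal were imprecise, at -0.25 ± 0.51 for Nodal, -0.66 ± 0.62 for Tdgf1, 0.41 ± 1.11 for Smad7, -0.27 ± 0.74 for Fgf5, 1.57 ± 1.30 for Lefty2, -0.80 ± 1.53 for Lefty1 and -0.91 ± 1.25 for Pou3f1. The interaction of position with mark gave 0 of 13086 genes (0%) by edgeR, with 790 at an unadjusted p below 0.05, and 38 by DESeq2. Of these genes 7 were tested and 0 passed.

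The shares of cells with a read were compared in the same way. Averaged over the 14 experiments (533 cells), Nodal was found in 59.1% of proximal and 64.9% of distal cells, a difference of -5.83 ± 15.9 percentage points (SD, n = 14, p = 0.197, exact two-sided sign-flip permutation test over experiments). Tdgf1 was in 41.4 and 41.5%, Smad7 in 28.6 and 29.8% and Fgf5 in 18.4 and 20.8% of cells. Lefty2 was in 5.71 and 3.23% and Eomes in 1.14 and 4.90%, each with an unadjusted exact permutation p of 0.125. None of the 10 genes came below 0.125. The smallest p that this test allows was 0.000122, for a gene whose share differs in all 14 experiments. It rises as fewer experiments differ. For Otx2, Lefty1, Eomes and Mixl1 too few differed to reach a p below 0.05, so the test could not decide for them. With cells thinned to 20000 reads (13 experiments, 483 cells), Nodal was at 43.8 and 42.0% and Tdgf1 at 28.7 and 25.0%, so that the sign of the difference turned for both. For these 10 genes no difference between the daughters passed the tests described.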

How the data were processed

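The authors deposited raw read counts per gene for the bulk libraries (exon counts from featureCounts 2.0.0, and 2.0.1 in 4 file headers, after Trim Galore 0.6.4 and STAR 2.5.4b on mm9, with no strand setting) and raw count matrices of single cells (reads on exons and introns, made with zUMIs). The counts of all 54 bulk libraries and 752 cells were read, and the chromatin libraries were not analysed here. Rn45s was removed. CPM used the remaining total (188275 to 16888686) and RPKM the length of merged exons.

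Tests used edgeR 4.0.16 in R 4.3.3 (quasi-likelihood, TMM, filterByExpr, Benjamini-Hochberg over all genes tested, called at an adjusted p below 0.05). SE is the absolute log2 fold change over the root of its F statistic. WT libraries of KO comparisons were the 6 with H3K27me3. Temperature was fitted with time, mark with cell number, and position with experiment as a block, on counts summed over at least 3 cells. Positions came from the study's list of cells. Scripts were tested on simulated data. Alternatives included DESeq2 1.42.0, its size factors, no filter, Rn45s kept, unadjusted p below 0.05 with a log2 fold change above 1, a replicate block and each library left out. Intervals are exact Clopper-Pearson and limits for 0 cells use 3 counts, both for counting error only. Named genes were the 10 members, Aebp2, Hprt and, of each list, the 2 genes called with the largest change in each direction, with the 3 most alike genes per member. A gene that this rule picked and a sequence are not reported here. The members and lists were chosen with earlier results of these data known. Sequences and gene positions came from the mm9 (NCBIM37) genome and annotation, with promoters taken as the 250 bases before each start. No 2 libraries of a condition agreed within sampling noise (lowest chi-square per gene 1.44).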

Additional observations from a re-analysis of the deposited data

Results flagged for a closer look

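Of 80 sets of 4 to 10 libraries or experiments examined, 11 held a value far from the rest, where chance gives about 1 in 20 in sets of continuous values. In most of these sets all other values were 0, so that a read in a single library or cell was enough, and that rate does not apply to them. In bulk these were Fgf5 at 0.584 CPM in the first H3K4me3 library of 1000 cells and at 0.178 CPM in the second 37 °C library of 15 min, with all others of each set at 0.

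The rest were shares of single cells with a read. Nodal was found in 100% of the proximal cells of H3K4me3 experiment 6, against 20.0 to 34.8% in the others. Eomes stood at 33.3% of distal cells in H3K27me3 experiment 1 (others 0 to 16.7%), 12.5% of proximal cells in H3K27me3 experiment 8 (others 0 to 3.45%) and 4.35% of distal cells in H3K4me3 experiment 5. Against 0 in every other experiment of the set, Lefty2 was at 4.55% of distal cells in H3K27me3 experiment 6, and Otx2 at 14.3% of distal cells in H3K27me3 experiment 3 and 9.09% of proximal cells in H3K4me3 experiment 6. Pou3f1 was likewise at 6.90% of proximal cells in H3K27me3 experiment 10 and 6.25% of proximal cells in H3K4me3 experiment 2.

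The temperature effect on Tdgf1 differed between 30 and 5 min, by 0.56 on the log2 scale in the interaction test described above.

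Some values in libraries used in no test lay above the range of those that were. Otx2 was at 58.4 CPM (11 counts) and Smad7 at 159 CPM in the second SET-seq library of 10 cells. Nodal was at 127 CPM in the second library of 30 pg, and Eomes at 16.01 CPM in the second of 3 ng and 15.7 CPM in the first of 30 pg.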

How the results depend on the processing

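Of the 10 genes, KO against WT called 6 under every fit without 1 library and 6 by the study's rule, with Pou3f1 in place of Tdgf1, and KO1 against KO2 called 0. For SET-seq against in vitro the 5 called became 3 by that rule (unadjusted p with a log2 fold change above 1) and 2 with 10000 cells alone. For ligation 3 became 6 with 37 °C for 5 min alone, and for 37 °C against 16 °C 6 became 0 by the study's rule. For the interaction with time, 1 became 0 by that rule, with DESeq2 size factors or with Rn45s kept, 2 without the filter, and 0 to 1 without 1 library. The direction turned for Smad7 in KO against in vitro WT (-1.0045), for Tdgf1 in SET-seq of 10000 cells (0.09) and for Otx2 at 5 min alone (-0.084). The cause was not tested. Pou3f1 in KO against WT passed with DESeq2 (adjusted p = 0.0449) and without the filter (adjusted p = 0.0192). In all, 26 single results fell below the threshold without a turn of direction, and 22 rose past it. The 3 that turned direction are those named above and are counted apart, and 1848 did not change in call.

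Over all genes, the study's rule gave 2910 calls for KO against WT, 536 between clones, 3681 for SET-seq, 1046 for temperature, 574 for the interaction with time, 39 between marks, 1194 for position and 790 for position by mark. Between clones 332 genes were called with DESeq2, 208 without the filter, 858 with the 4 KO libraries alone, and 4 to 214 without 1 library. SET-seq of 10000 cells gave 5196, 5 min alone 3367, and the interaction with time 132 to 475 without 1 library, lowest without the second 16 °C library of 30 min. Between marks 3 were called with 10000 cells alone. For position 47 were called with DESeq2, 24 without the filter, 55 with no replicate block and 8 with all cells, and for position by mark 38 with DESeq2 and 3 without the filter.

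The alternatives for both interactions and for leaving out experiments were chosen after seeing the data. Replicate numbers were checked for pairing. Deviations of same-numbered libraries correlated at -0.05 to 0.06 for KO with WT (0 of 10 pairs over 0.1), at -0.08 to 0.46 between temperatures (8 of 28), at -0.43 to 0.88 for SET-seq with in vitro (26 of 210) and for ligation with in vitro (16 of 78), and at -0.07 to 0.09 between marks (0 of 15). Since not every pair was over 0.1, the numbers were not taken to pair the libraries. With a replicate block 6 of the genes (4804 of all) were called for KO, 0 (45) between clones, 7 (7479) for temperature, adding Eomes, 6 (8612) for SET-seq, 3 (7494) for ligation, 0 (0) between marks and 1 (463) for the interaction with time. Depth limits Fgf5, Mixl1 and Pou3f1, whose counts in the KO libraries were between 0 and 3.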
